A study of Mus musculus with 24 samples.

Results

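Liver RNA from weaned pups of a pair of Cyp1b1-deficient mouse lines was compared under a vitamin A sufficient diet. The arrays were chosen by their labels alone, and 5 of the 24 arrays of the series belong to the comparison: 3 of R-Cyp1b1-null and 2 of Cyp1b1-null. Both lines lack Cyp1b1. R-Cyp1b1-null is labelled as a substrain of the null mice that resists obesity induced by diet, and the sources used here do not name an allele behind that resistance. All pups were male and 21 days old (PN21), and each array carried the pooled RNA of 2 mice. Dams changed from a breeder diet to a defined low-fat diet with vitamin A at embryonic day 4.5, and that diet lasted until the pups were killed. The labels call the pools separate samples without saying whether they came from separate litters. The p-values rest on the spread between arrays within all groups of the series, not within these 5 arrays alone. That spread may be technical. Wild-type C57Bl/6J pups of the same age and diet served as a reference: their 3 arrays held the RNA of 4 mice in 1 pool and counted as 1 sample.

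The Cyp1b1 enzyme belongs to the cytochromes P450 and acts on polycyclic aromatic hydrocarbons, oestradiol and retinoids. Around weaning the mouse liver leaves its fetal programme, silences Afp, Igf2 and H19, and turns on the synthesis of fatty acids and cholesterol as milk gives way to a diet rich in carbohydrate. The transcription factors SREBP1c and ChREBP drive the genes of fatty acid synthesis, and SREBP2 drives those of cholesterol synthesis when sterols run low. Retinoic acid made from vitamin A acts through RAR receptors, which induce Cyp26a1, the enzyme that breaks retinoic acid down.

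Each value is a log2 signal minus that array's 75th percentile, and differences are R-Cyp1b1-null minus Cyp1b1-null on the log2 scale. A gene was called at a Benjamini-Hochberg adjusted p under 0.05 in limma. Line and slide cannot be told apart: both null arrays lay on slide 4, while R-Cyp1b1-null samples 1, 2 and 3 lay on slides 1, 2 and 3 beside the wild-type pool. Negative control spots read 23.9 and 25 above local background on the null arrays and 142.3, 144.7 and 686.6 on the R-Cyp1b1-null arrays. The lowest signal well above background was accordingly lower on the null arrays (-5.44 and -5.67) than on the R-Cyp1b1-null arrays (-3.82, -4.08 and -3.59). R-Cyp1b1-null sample 3 stood apart from every other array of its age. Its 75th percentile of signal was 1963.1 against 265.6 to 357.6 on the other arrays of the comparison, its median correlation with the other PN21 arrays was 0.542 against 0.923 to 0.945, and its 95th percentile of log2 signal was 1.15 against 3.67 to 3.71. Its range was therefore narrower at the bright end. Genes of low signal tended to read higher on it: the median of skeletal muscle genes was 0.13 there, against -2.08 and -2.46 on samples 1 and 2. The main counts and leading genes are given with and without sample 3. The number of arrays limits the precision throughout.

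With all 5 arrays, 3428 of 20534 genes were called (16.7%), 3271 of them higher in R-Cyp1b1-null (15.9%) and 157 lower (0.765%). Without sample 3, 2738 were called (13.3%), with 2585 higher (12.6%) and 153 lower (0.745%), and 2611 genes were called in both fits. Most calls in the higher direction concerned dim probes. Of the 3271 genes called higher, 2183 passed the background test on neither null array, 335 on 1 and 753 on both. Among the 15072 genes well above background on all 5 arrays, 728 were called higher (4.83%) and 134 lower (0.889%). Without sample 3 these were 367 (2.36%) and 101 (0.649%) of 15572. Of the latter, 41 higher and 33 lower genes were also called after quantile normalization without sample 3. Leaving out null sample 1 gave 2081 calls and null sample 2 gave 1806. A fit of the 5 arrays alone called none, with 3046 genes at an unadjusted p under 0.05 in limma. The median difference over all genes was 0.05, and 0.19 without sample 3. Quantile normalization without sample 3 moved that median to -0.01 and turned the share of calls in the higher direction from 94.4% to 39.4%. With all 5 arrays, quantile normalization moved that share from 95.4% to 47.8%, so the excess of higher calls depended on the scaling.

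**Figure D1:**
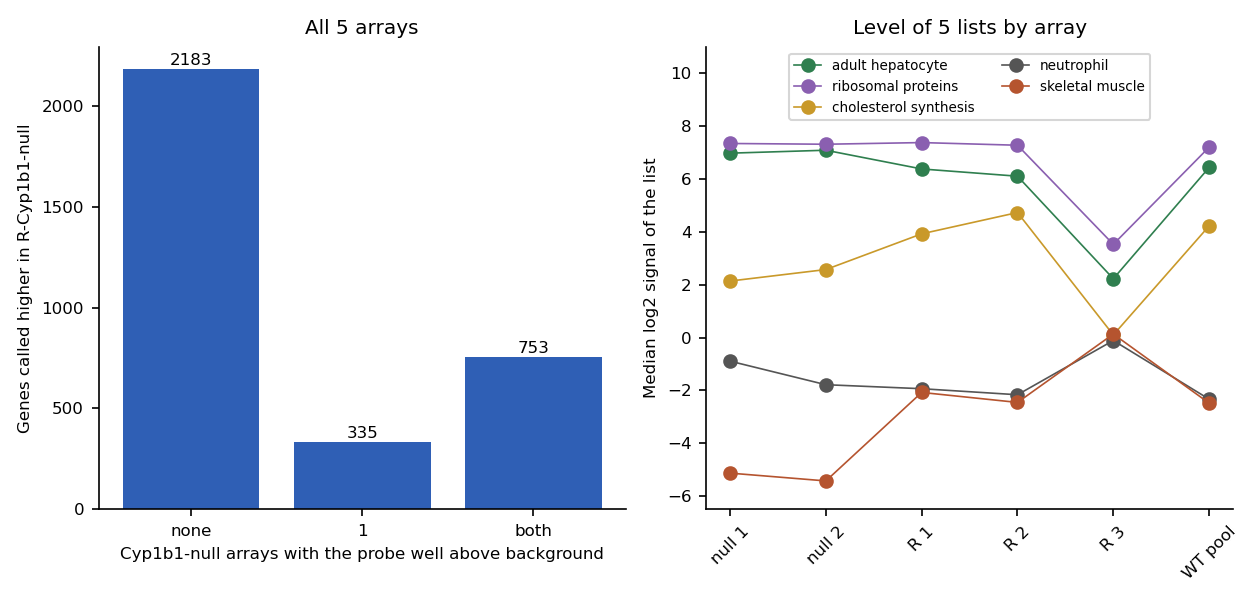
Left, the number of genes called higher in R-Cyp1b1-null with all 5 arrays, by how many of the 2 Cyp1b1-null arrays had the probe well above background: 2183 genes on neither, 335 on 1 and 753 on both. Right, the median log2 signal (relative to the 75th percentile) of 5 gene lists on each array. Skeletal muscle genes lay near the detection limit on both null arrays, and sample 3 of R-Cyp1b1-null read low for hepatocyte, ribosomal and cholesterol genes.

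The liver label was borne out by all 26 adult hepatocyte genes, Alb, Apoa1 and Ttr among them, which were well above background on all 5 arrays. Their median was 6.98 and 7.09 in Cyp1b1-null and 6.38, 6.11 and 2.23 in R-Cyp1b1-null. None of the 26 was called in either fit. The median difference was -1.81 with all arrays and -0.25 without sample 3. The brighter Cyp1b1 probe read 0.38 and 0.42 in Cyp1b1-null, -0.58, 0.58 and -0.96 in R-Cyp1b1-null and -2.54 in the wild-type pool. The lines overlapped, and the difference of -0.73 ± 0.69 was not called (limma adjusted p = 0.463). Which exons were deleted is not stated in the labels, so the probe checks nothing about the deletion.

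Igf2 and Afp, genes of the fetal liver, were lower in R-Cyp1b1-null. Igf2, which encodes an imprinted fetal growth factor, read 3.72 and 3.59 in Cyp1b1-null and -1.72, -1.98 and -1.99 in R-Cyp1b1-null. Its probe lies at chr7:149836673-149836709 (mm9). No R-Cyp1b1-null array came near the null level, and all 3 lay close to the wild-type pool (-1.83). The group means were 3.66 ± 0.09 (SD, n = 2) and -1.90 ± 0.15 (SD, n = 3), and the difference was -5.55 ± 0.53 (SE; adjusted p = 9.89e-05), or -5.51 ± 0.56 without sample 3 (adjusted p = 2.76e-05). Afp, the fetal counterpart of serum albumin, read 5.55 and 4.80 in Cyp1b1-null and 0.72, 0.73 and -2.61 in R-Cyp1b1-null, against 0.95 in the pool. The R-Cyp1b1-null arrays again lay below both null arrays. The difference was -5.56 ± 0.79 (adjusted p = 0.000275), and -4.45 ± 0.50 without sample 3 (adjusted p = 4e-05). Under normexp background correction with quantile normalization 4 genes were called, and Igf2 and Afp were among them, beside Ifi202b and Rarres1. Rarres1, a retinoid-responsive gene named after its values were seen, read 2.18 and 2.33 against 0.35, 0.57 and -0.16 (adjusted p = 0.00108).

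On the list of fetal and imprinted growth genes, Cdkn1c, H19 and Gpc3 were also called lower with all arrays, and of these Cdkn1c alone without sample 3. The imprinted genes Dlk1, Peg3, Plagl1 and Mest of that list were called in neither fit. Cdkn1c, an imprinted inhibitor of cyclin-dependent kinases, read 3.86 and 3.86 in Cyp1b1-null and 2.25, 2.17 and 0.07 in R-Cyp1b1-null, and was called in both fits (adjusted p = 0.0137 and 0.0342). H19, the non-coding RNA beside Igf2, read 6.86 and 6.71 against 4.83, 4.78 and -0.61. The groups did not overlap. The difference was -3.78 ± 1.23 with all arrays (adjusted p = 0.0451), and -1.98 ± 0.75 without sample 3, where it was not called (adjusted p = 0.109). Gpc3, which encodes the oncofetal glypican 3, read 2.96 and 2.62 against 1.70, 1.26 and -0.40 and was likewise called with all arrays alone (adjusted p = 0.025 and 0.0714). Of the 22 fetal and imprinted genes tested, 16 lay lower with all arrays. In that fit 5 were called lower (0.765% of all genes) and 2 higher (15.9% of all genes). Without sample 3, 15 of the 22 lay lower, and 3 were called lower (0.745% of all genes) and 2 higher (12.6% of all genes). Their median was -0.59 against 0.19 over all genes. The genes called higher in both fits were Igf2bp1 and Lin28b, which encode fetal RNA-binding proteins. Neither was well above background on a null array, so their differences describe signal near the detection limit.

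**Figure D2:**
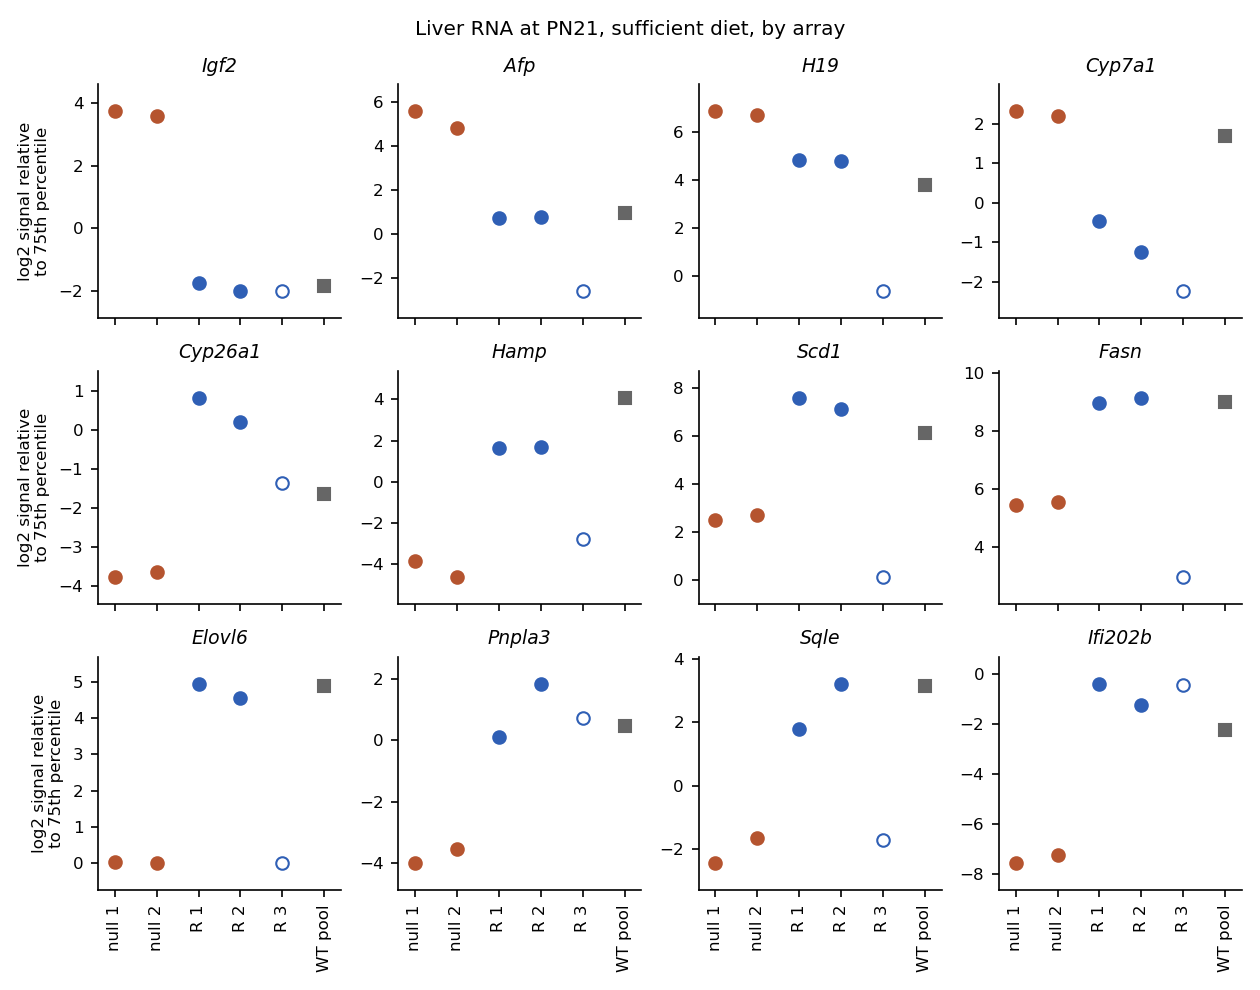
Log2 signal relative to the 75th percentile of the array for 12 genes, on the 2 Cyp1b1-null arrays (brown), R-Cyp1b1-null samples 1 and 2 (filled blue) and sample 3 (open blue), with the mean of the wild-type pool (grey square). Igf2 was 3.72 and 3.59 on the null arrays and at or below -1.72 on the others, and sample 3 departed from samples 1 and 2 for Scd1, Fasn, Elovl6 and Sqle.

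Genes of cholesterol synthesis were higher in R-Cyp1b1-null samples 1 and 2 but not in sample 3. Of 20 genes, 14 lay higher with all arrays and 2 were called, Lss and Cyp51, with a median of 0.49. Without sample 3, 18 lay higher and 10 were called, where 12.6% of all genes were called higher. None was called lower, and the median was 1.83 against 0.19 over all genes. Quantile normalization without sample 3 gave the same median. The list median read 2.14 and 2.57 in Cyp1b1-null, 3.93, 4.73 and 0.098 in R-Cyp1b1-null and 4.23 in the wild-type pool. Sqle encodes squalene epoxidase, the first oxygen-dependent step of the pathway. It read -2.45 and -1.64 in Cyp1b1-null, 1.79, 3.23 and -1.71 in R-Cyp1b1-null and 3.16 in the pool. Samples 1 and 2 lay near the pool, and sample 3 lay within the null range. The difference was 3.15 ± 1.13 (adjusted p = 0.0715), and 4.55 ± 0.87 without sample 3 (adjusted p = 0.00149).

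The same pattern ran along the pathway. Fdps, which makes farnesyl diphosphate, read 0.32 and 0.65 against 4.09, 4.76 and 0.08 (difference without sample 3 3.95 ± 1.09, adjusted p = 0.0219). Idi1, the isomerase of isoprenoid units, read 0.61 and 1.33 against 3.76, 4.70 and -0.48 (3.26 ± 0.84, adjusted p = 0.0133). Both were below the null level on sample 3, and neither passed the test with all 5 arrays. Nsdhl, a sterol demethylation enzyme, differed by 3.67 ± 0.76 (adjusted p = 0.00271) and Mvd, the mevalonate diphosphate decarboxylase, by 3.44 ± 0.85 (adjusted p = 0.0104), both without sample 3. Pmvk, Msmo1 and Dhcr7 completed the 10, with differences of 2.37, 2.40 and 1.98.

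Lss, which closes the sterol ring, and Cyp51, which removes a methyl group from lanosterol, were called in both fits. Lss read -1.30 and -1.08 in Cyp1b1-null and 0.83, 1.55 and -0.22 in R-Cyp1b1-null, a difference of 1.91 ± 0.56 (adjusted p = 0.0256). Cyp51 read -2.15 and -1.88 and 0.66, 1.12 and -0.98, a difference of 2.28 ± 0.74 (adjusted p = 0.0433). All 3 R-Cyp1b1-null arrays lay above both null arrays for either gene, with sample 3 closest to them. That sample tended to read high for genes of low signal.

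Genes of sterol sensing outside the synthesis pathway gave fewer calls. Without sample 3, 2 of 15 were called, both higher, where 12.6% of all genes were called higher. The median was 0.02, below that of all genes. Insig1, the sterol-regulated anchor of SCAP, read 0.20 and 0.77 against 2.37, 3.37 and 0.87 (2.39 ± 0.58, adjusted p = 0.00905). Rdh11, a retinol dehydrogenase that sterols regulate, read 0.89 and 1.21 against 3.46, 4.03 and -0.59 (2.69 ± 0.60, adjusted p = 0.00474). With all arrays none of the 15 was called.

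Fatty acid synthesis showed the same split between the R-Cyp1b1-null samples. Of 22 genes, 12 lay higher with all arrays and 2 were called, Elovl6 and Acacb, with a median of 0.39. Without sample 3, 21 lay higher and 11 were called, where 12.6% of all genes were called higher. None was called lower, and the median was 1.60. Scd1 encodes the stearoyl-CoA desaturase that makes oleate. It read 2.50 and 2.71 in Cyp1b1-null, 7.60, 7.12 and 0.11 in R-Cyp1b1-null and 6.12 in the pool. Sample 3 lay below both null arrays, which left a difference of 2.34 ± 1.49 (adjusted p = 0.308) with all arrays and 4.75 ± 0.65 (adjusted p = 0.000137) without it.

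Fasn, the fatty acid synthase, was among the brightest genes of the pathway. It read 5.43 and 5.53 in Cyp1b1-null and 8.97, 9.16 and 2.94 in R-Cyp1b1-null, with the pool at 9.0 (3.58 ± 0.62 without sample 3, adjusted p = 0.000709). Elovl6, the elongase of palmitate, read 0.03 and -0.01 against 4.95, 4.56 and -0.01. Its sample 3 value lay at the null level, yet the gene was called with it (adjusted p = 0.0484) and without it (adjusted p = 5.85e-05). Acacb, the mitochondrial acetyl-CoA carboxylase, read -0.89 and -1.29 against 2.69, 3.54 and -0.26 (adjusted p = 0.0412 and 0.00156). Thrsp, a lipogenic protein induced by thyroid hormone and carbohydrate, read 2.00 and 2.41 against 6.00, 6.93 and 1.93 (4.26 ± 1.08 without sample 3, adjusted p = 0.0123).

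The supply enzymes of the pathway were higher in samples 1 and 2 too. Without sample 3, Acly, which makes cytosolic acetyl-CoA from citrate, differed by 2.63 ± 0.47 (adjusted p = 0.00092). Acss2, which makes it from acetate, differed by 2.65 ± 0.57 (adjusted p = 0.00359), and Me1, the malic enzyme that makes NADPH, by 2.21 ± 0.51 (adjusted p = 0.00656). Acaca, the cytosolic acetyl-CoA carboxylase, Pgd and Tkt, of the pentose phosphate pathway, completed the 11, with differences of 1.83, 1.67 and 1.41. Srebf1, which encodes SREBP1, read 6.74 and 6.96 against 7.31, 7.24 and 3.39. It was called in neither fit, with a difference of -0.87 ± 0.84 (adjusted p = 0.47) and of 0.42 ± 0.44 without sample 3 (adjusted p = 0.773).

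**Figure D3:**
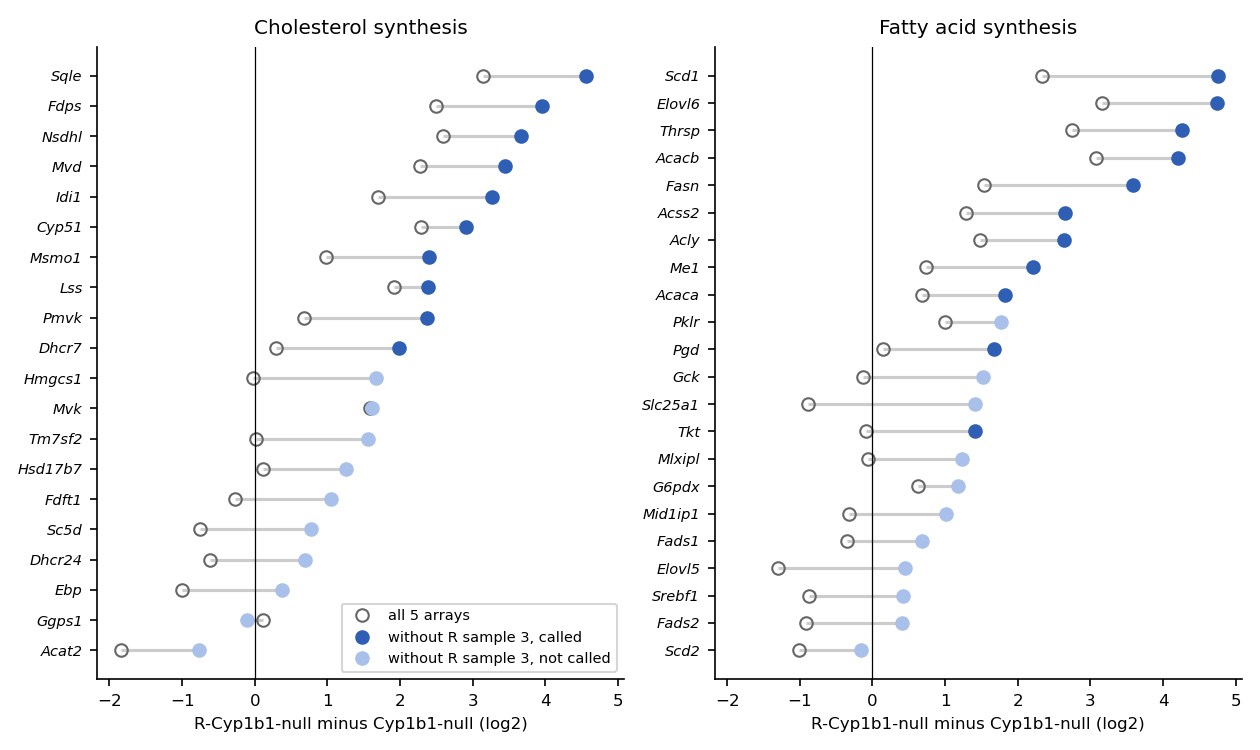
Difference between the lines (R-Cyp1b1-null minus Cyp1b1-null, log2) for each gene of cholesterol synthesis (left, 20 genes) and fatty acid synthesis (right, 22 genes), with all 5 arrays (open) and without R-Cyp1b1-null sample 3 (filled, dark where called). Every point but that of Ggps1 shifted upward when sample 3 was left out, and 10 and 11 genes were then called.

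Of 27 triglyceride and lipid droplet genes, 3 were called without sample 3, all higher. Pnpla3 encodes a lipid droplet lipase and retinyl esterase that SREBP1c induces. It read -4.00 and -3.54 in Cyp1b1-null and 0.10, 1.83 and 0.73 in R-Cyp1b1-null, with the pool at 0.45. All 3 R-Cyp1b1-null arrays lay well above the null arrays, sample 3 included, but genes of low signal tended to read high on that sample. The difference was 4.66 ± 0.63 (adjusted p = 0.00025) and 4.74 ± 0.67 without sample 3 (adjusted p = 0.000172). Gpam, which starts glycerolipid synthesis, read -3.38 and -2.77 against -0.62, -0.26 and -1.64 and was called in both fits (adjusted p = 0.0499 and 0.0273). Pnpla5 read -0.98 and -1.47 against 0.69, 0.52 and -0.09 and was called without sample 3 alone (adjusted p = 0.0347). These were the 3 calls among 27 genes of the list, whose median was 0.34 without sample 3. In that fit 12.6% of all genes were called higher.

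The promoters of lipid genes that were called in both fits are shown for the letters they share. They cover the 120 bases before the RefSeq start (GRCm38.p6), 5′ to 3′ on the strand of the gene, with CCAAT or its complement ATTGG, the core of the NF-Y box that acts beside SREBP, in capitals. For Gpam the first of 2 promoters in the table is shown, and the other held neither motif in its 120 bases. Elovl6 was also called in both fits and held neither this box nor TCACNCCAC, a form of the sterol regulatory element, in the 250 bases searched.
Lss, chr10:76531485-76531604, plus strand: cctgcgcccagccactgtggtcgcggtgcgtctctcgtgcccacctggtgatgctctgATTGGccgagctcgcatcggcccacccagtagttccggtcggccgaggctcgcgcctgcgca
Cyp51, chr5:4104698-4104817, minus strand: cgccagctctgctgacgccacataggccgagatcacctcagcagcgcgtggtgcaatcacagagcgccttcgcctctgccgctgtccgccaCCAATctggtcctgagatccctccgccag
Acacb, chr5:114165398-114165517, plus strand: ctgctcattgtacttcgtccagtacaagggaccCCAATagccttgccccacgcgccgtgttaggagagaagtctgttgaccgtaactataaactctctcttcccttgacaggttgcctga
Gpam, chr19:55127239-55127358, minus strand: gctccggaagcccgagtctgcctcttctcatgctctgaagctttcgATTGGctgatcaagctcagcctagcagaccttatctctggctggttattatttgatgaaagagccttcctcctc
Pnpla3, chr15:84167696-84167815, plus strand: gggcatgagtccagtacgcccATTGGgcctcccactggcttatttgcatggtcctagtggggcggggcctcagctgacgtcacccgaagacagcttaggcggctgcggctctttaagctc

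On either strand, CCAAT stood in the 250 bases before at least 1 start of 15 of the 16 cholesterol synthesis genes found in the RefSeq promoter table (93.8%), of 11 of 18 fatty acid synthesis genes (61.1%) and of 10 of 23 triglyceride genes (43.5%). It stood before 37.5% of all 27025 genes and 33.8% of all 32851 promoters. TCACNCCAC stood before 1 of the 16 and 1 of the 18, against 1.22% of all genes and 1.05% of all promoters. A match is a description of the letters and not of binding.

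Fatty acid oxidation and glucose metabolism gave 1 call without sample 3, where 13.3% of all genes were called. Of 31 oxidation and PPARA target genes 27 lay lower with all arrays and 16 without sample 3, where the median was -0.01. Acot1, a cytosolic acyl-CoA thioesterase with close paralogs, was the single call: it read 1.03 and 0.95 against 2.41, 4.05 and -0.12 (2.24 ± 0.64 without sample 3, adjusted p = 0.0275). Of 19 genes of glucose metabolism none was called in either fit. Ppp1r3g, a glycogen-targeting subunit of protein phosphatase 1, had the smallest p among them without sample 3 and read -1.54 and -1.63 against 0.08, -0.32 and -2.27 (adjusted p = 0.185 without sample 3).

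Cyp26a1 stood out among the retinoid genes. It read -3.78 and -3.64 in Cyp1b1-null, 0.84, 0.22 and -1.37 in R-Cyp1b1-null and -1.64 in the wild-type pool. The lines did not overlap, and sample 3 lay between samples 1 and 2 and the null arrays. The difference was 3.61 ± 0.65 (adjusted p = 0.00091), and 4.24 ± 0.58 without sample 3 (adjusted p = 0.000134). Its promoter is shown for the direct repeat through which retinoic acid receptors are known to act on this gene. The capitals mark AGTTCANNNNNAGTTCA read on the opposite strand, in the 120 bases before the start.
Cyp26a1, chr19:37697688-37697807, plus strand: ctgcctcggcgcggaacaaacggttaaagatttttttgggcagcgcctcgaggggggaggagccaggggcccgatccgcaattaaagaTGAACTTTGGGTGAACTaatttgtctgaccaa

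That spaced repeat occurred before 7 of all 32851 promoters in the table, or 0.0213%. Of 28 retinoid genes tested, 3 were called in both fits, all higher: Cyp26a1, Rarg and Crabp1. Over all genes, 15.9% were called higher with all arrays and 12.6% without sample 3. Rarg, a retinoic acid receptor, read -5.07 and -4.88 against -2.27, -2.58 and 0.46, close to the detection limit of the null arrays, and its 4 probes gave differences from -0.76 to 2.55 without sample 3. Crabp1, a cytosolic retinoic acid binding protein, was well above background on no null array and at least 10.1-fold higher in R-Cyp1b1-null, or 6.13-fold without sample 3. For such bounds, each array of the dimmer group entered at its detection limit (its lowest signal called above background) or at the probe's own signal where that was higher, and their mean was set against that of the brighter group. The median of the retinoid list was -0.01 without sample 3.

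Cyp7a1, the rate-limiting enzyme of bile acid synthesis, was lower in R-Cyp1b1-null. It read 2.32 and 2.21 in Cyp1b1-null and -0.47, -1.24 and -2.23 in R-Cyp1b1-null, and the wild-type pool at 1.71 lay on the null side. The difference was -3.57 ± 0.81 (adjusted p = 0.00491), and -3.11 ± 0.83 without sample 3 (adjusted p = 0.0166). Among 22 bile acid genes it was the single one called lower, and 2 were called higher. With all arrays, 0.765% of all genes were called lower and 15.9% higher. The 2 bile acid genes called higher were the transporter genes Slco1a1, above background on neither null array and at least 9.71-fold higher (5.31-fold without sample 3), and Slc51a. Slc51a read -4.85 and -6.95 against -2.59, -3.0 and 0.88. The list median was 0.05 without sample 3.

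Among drug-metabolising and conjugating enzymes, the calls were on dim probes. The share of all genes called higher was 15.9% with all arrays and 12.6% without sample 3. Of 28 cytochromes P450, Cyp2c38 and Cyp1a1 were called higher, at least 7.17-fold and 6.85-fold (5.03- and 4.55-fold without sample 3), and were above background on neither null array. Cyp2b10, the marker of the receptor CAR, read -0.28 and -0.26 against -0.74, -0.92 and -1.55 (adjusted p = 0.32, and 0.728 without sample 3). Of 28 phase II and NRF2 target genes, Slc7a11, a cystine transporter, and Sult3a1, a sulfotransferase, were called higher at dim levels, at least 12.9-fold and 6.6-fold. Without sample 3 these bounds were 6.12-fold and 4.9-fold. Gstm3, a glutathione transferase with close paralogs, read 7.15 and 7.08 against 8.70, 8.65 and 4.35 and missed the threshold without sample 3 (adjusted p = 0.0516).

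Among growth hormone and sex-dimorphic targets, Mup3, one of the major urinary protein genes, read 0.80 and 0.95 in Cyp1b1-null and 5.16, 5.84 and 1.21 in R-Cyp1b1-null, with the pool at 5.99. The difference without sample 3 was 4.62 ± 0.77 (adjusted p = 0.0005), and with all arrays 3.19 ± 1.07 (adjusted p = 0.0532). The Mup genes are nearly identical, so the probe may read several of them. Of 27 genes on the list 4 were called without sample 3, all higher, where 12.6% of all genes were called higher. A1bg, a plasma glycoprotein gene, was above background on neither null array and at least 11.9-fold higher, or 8.77-fold without sample 3. Igf1, the main growth hormone target of liver, read 7.32 and 7.32 against 6.85, 6.92 and 3.17 and was called in neither fit (adjusted p = 0.219 and 0.827).

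Hamp, which encodes the iron hormone hepcidin, read -3.89 and -4.65 in Cyp1b1-null, 1.64, 1.69 and -2.80 in R-Cyp1b1-null and 4.09 in the pool. Samples 1 and 2 lay far above the null arrays and below the pool, and sample 3 lay close to the null arrays. The difference was 4.45 ± 1.53 (adjusted p = 0.059), and 5.93 ± 1.40 without sample 3 (adjusted p = 0.0074). Its neighbour Hamp2 read 1.71 and 1.07 against 4.52, 2.93 and -1.22 and was not called (adjusted p = 0.202 without sample 3). The 60-base probes of Hamp and Hamp2 shared no stretch longer than 14 bases. Tfrc, the transferrin receptor, read 1.59 and 1.81 against -0.59, 1.05 and -0.58 (adjusted p = 0.0691, and 0.181 without sample 3). Without sample 3, Hamp was the single call among 26 genes of iron and haem, where 13.3% of all genes were called.

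Ifi202b had the smallest p-value of all genes tested. It encodes an interferon-inducible sensor of DNA whose expression differs between inbred strains, and its close paralogs may share the probe. It read -7.57 and -7.26 in Cyp1b1-null, where it was not above background, -0.38, -1.23 and -0.43 in R-Cyp1b1-null and -2.23 in the pool. It was thus at least 29.3-fold higher in R-Cyp1b1-null (measured means -7.41 ± 0.22 and -0.68 ± 0.48, adjusted p = 1.52e-05), and at least 26.9-fold without sample 3. Of 30 interferon response genes tested, Mx1 was the other one called: it read -6.59 and -7.19 against -4.29, -3.29 and -0.24 and was above background on neither null array. The share called of all genes was 16.7% with all arrays and 13.3% without sample 3. Oasl1 read -1.01 and -1.24 against 0.03, 0.02 and -0.82 (adjusted p = 0.0769 without sample 3).

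Acute phase genes gave 1 call in each direction of 28 without sample 3, where 12.6% of all genes were called higher and 0.745% lower. Crp, C-reactive protein, read -1.17 and -1.10 against 1.18, 0.59 and -0.0036 and was called higher in both fits (adjusted p = 0.0349 and 0.0146). Lcn2, which neutrophils also express, read -1.25 and -1.50 against -2.60, -3.37 and -1.74 and was called lower without sample 3 (adjusted p = 0.0241). Saa4, a constitutive serum amyloid, read 4.65 and 4.63 against 3.49, 3.72 and 0.99 (adjusted p = 0.0584, and 0.176 without sample 3).

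Neutrophil genes went both ways, several were called lower in R-Cyp1b1-null, and the null arrays differed from each other. S100a9, a calprotectin subunit, read 5.02 and 3.59 in Cyp1b1-null and 2.33, 2.47 and 0.46 in R-Cyp1b1-null. S100a8, the other subunit, read 2.56 and 1.09 and -0.25, -0.03 and -1.20. Both were called in both fits (S100a9 adjusted p = 0.0122 and 0.0384, S100a8 0.0102 and 0.0308). Camp, the cathelicidin, read 0.58 and -1.06 against -2.85, -2.48 and -0.19 (adjusted p = 0.00235 without sample 3), and Mpo, myeloperoxidase, 0.86 and -0.38 against -0.88, -1.45 and 0.58 (adjusted p = 0.041 without sample 3). Null sample 1 was the highest array for each of these 4 genes. For Camp and Mpo, R-Cyp1b1-null sample 3 lay above null sample 2. Of 14 neutrophil genes, 7 lay higher and 7 lower with all arrays (median 0.25), and 5 higher and 9 lower without sample 3 (median -0.40). With all arrays 2 were called lower and 1 (Cxcr2) higher, and without sample 3 5 were called lower, Lcn2 among them. The shares of all genes called lower in these fits were 0.765% and 0.745%, and 15.9% were called higher with all arrays. On the deficient diet 10 of the 14 lay higher (median 0.38). Summed over the list, the log2 signal was 5.50 and 4.11 in Cyp1b1-null and 3.14, 3.18 and 3.84 in R-Cyp1b1-null. In these bulk samples fewer cells of a type and less RNA per cell cannot be told apart.

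No gene was called without sample 3 among the markers of hepatic stellate cells (14 genes, median -0.27), liver endothelium (14, -0.33), Kupffer cells and macrophages (15, 0.04) or lymphocytes (18, -0.16).  All 23 skeletal muscle genes lay higher with all arrays (median 2.68), but 12 of them were above background on neither null array. On the list, 4 were called with all arrays and 2 without sample 3. Quantile normalization without sample 3 brought the median of 1.88 to 0.94, and that of the exocrine pancreas genes from 0.64 to -0.50, of adipose genes from 0.56 to -0.05 and of gut genes from 0.39 to -0.08. Without sample 3, calls numbered 3 of 8 kidney genes, 2 of 9 adipose genes, 2 of 9 gut genes, 3 of 11 cholangiocyte genes, 2 of 15 erythroid genes and 3 of 21 exocrine pancreas genes, 1 of these last lower and the others higher. Over all genes, 13.3% were called without sample 3, and 12.6% were called higher.

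Calls among general cellular genes are given by list. Over all genes, 16.7% were called with all arrays and 13.3% without sample 3. Of 35 oxidative phosphorylation genes all lay lower with all arrays (median -1.51), but without sample 3 the median was -0.22 and 32 lay lower. Cox7c, a subunit of cytochrome c oxidase, was the single call in both fits: it read 2.18 and 1.97 against 0.79, 0.36 and -0.99 (adjusted p = 0.0109 and 0.0268). No ribosomal protein gene was called, and their median went from -1.37 to -0.04 when sample 3 was left out. Of 31 extracellular matrix genes 28 lay lower without sample 3 (median -0.43), with none called. Lox, the collagen cross-linking oxidase, read -4.07 and -3.78 against -5.36, -6.23 and -5.91, above background on no R-Cyp1b1-null array, and was called with all arrays alone (adjusted p = 0.0374, and 0.0649 without sample 3). With all arrays its mean null level did not exceed the mean detection limit of the R-Cyp1b1-null arrays, so no fold is given. No gene of the cell cycle (32 genes, median 0.24), unfolded protein response (22, 0.27), heat shock (16, -0.05) or circadian clock (21, 0.09) lists was called without sample 3. The clock genes Bhlhe41 and Ciart were called higher with all arrays alone. Atf3, a stress factor, read -3.18 and -3.01 against -1.98, -1.26 and -1.49 (adjusted p = 0.0607, and 0.1 without sample 3). Hyou1, a chaperone of the endoplasmic reticulum, read 2.35 and 2.32 against 3.67, 3.52 and -0.57. Its difference was -0.13 ± 0.94 with all arrays (adjusted p = 0.928) and 1.26 ± 0.55 without sample 3 (adjusted p = 0.19). Per2 read -1.96 and -1.89 against -1.45, -0.89 and -0.75 (adjusted p = 0.119, and 0.225 without sample 3).

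**Figure D4:**
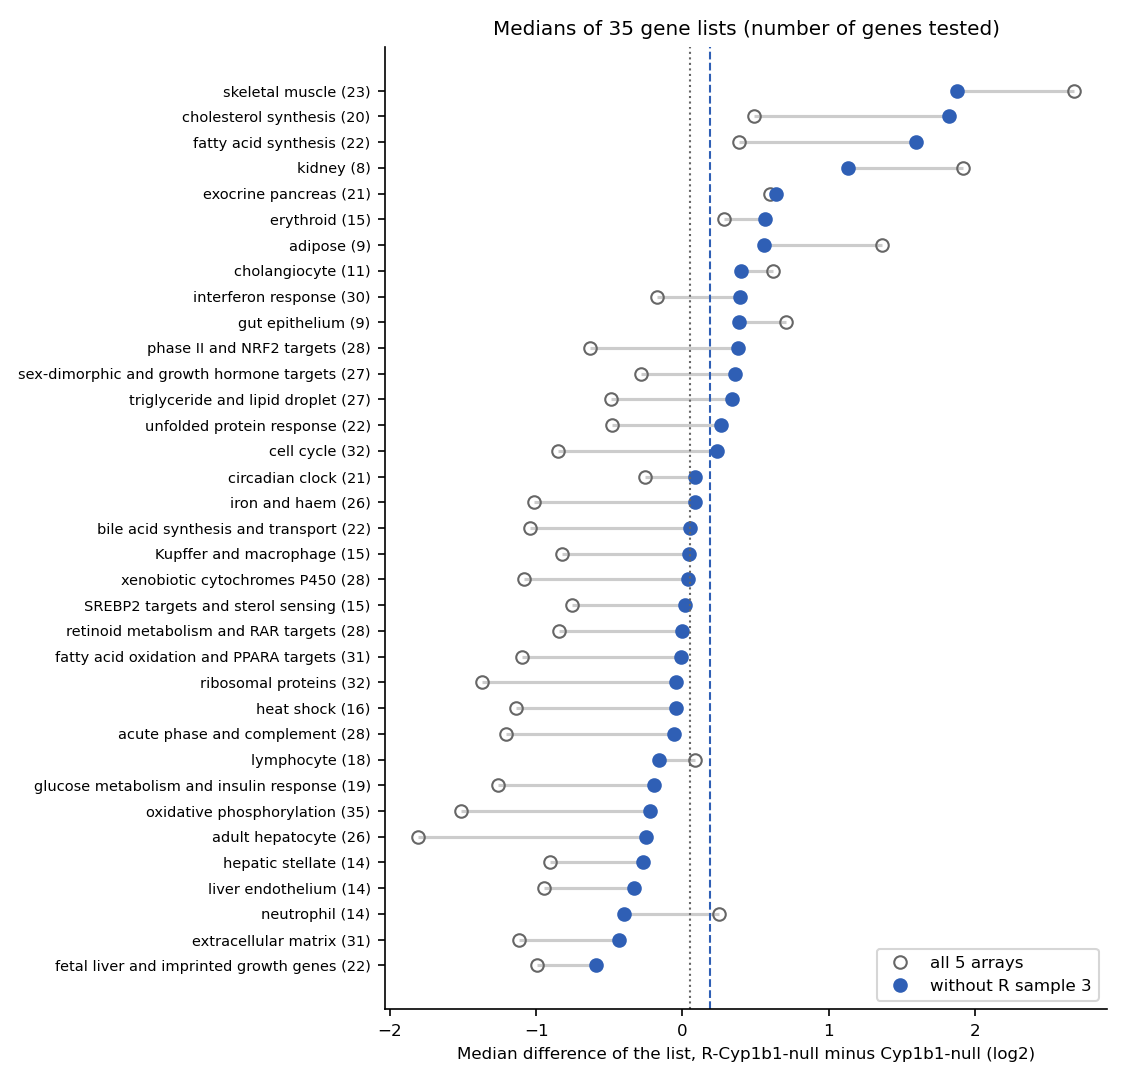
Median difference between the lines (log2) of the tested members of 35 gene lists, with all 5 arrays (open) and without R-Cyp1b1-null sample 3 (filled), with the median over all genes as vertical lines (dotted, 0.05, with all arrays and dashed, 0.19, without sample 3). Skeletal muscle had the highest median without sample 3 (1.88), followed by cholesterol synthesis (1.83) and fatty acid synthesis (1.60).

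Outside the lists, the largest differences among genes above background on every array went both ways. Ctse, the aspartic protease cathepsin E, read -2.94 and -2.99 against 1.10, 2.34 and -0.97 and was called in both fits (difference 3.79 ± 0.74, adjusted p = 0.00164, and 4.69 ± 0.57, adjusted p = 6.6e-05, without sample 3). Barhl2, a homeobox factor of neurons, read -4.07 and -4.93 in Cyp1b1-null and 0.17, -0.33 and 2.24 in R-Cyp1b1-null. Its 2 probes gave differences of 4.42 and 0.86 without sample 3, and the values given are those of the first. Misp, Slc8a3, Ffar2, Tmem221, Car15 and Dlx6 had the same profile: a null level between -5.56 and -3.62, a higher level on samples 1 and 2 and the highest on sample 3. The pool lay between -1.83 and 0.77 for these 7 genes, on the same slides as R-Cyp1b1-null. Tex101, Fgf14, Jsrp1 and Trim50 were above background on neither null array and at least 58.1-, 53.4-, 48- and 46.6-fold higher, or 31.4-, 32.7-, 26- and 23.9-fold without sample 3.

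Downward, Bhmt, which remethylates homocysteine from betaine, read 8.50 and 8.35 against 6.49, 5.51 and 2.27. Its difference was -3.67 ± 1.08 (adjusted p = 0.0262), and -2.42 ± 0.89 without sample 3 (adjusted p = 0.0932). Mt2, a metallothionein, read 6.61 and 7.70 against 5.90, 2.97 and 3.47, a difference of -3.04 ± 0.85 (adjusted p = 0.0203), and of -2.71 ± 0.90 without sample 3 (adjusted p = 0.0594). Neither was called without sample 3. Sfxn2, a mitochondrial carrier, read 3.89 and 3.70 against 2.23, 1.95 and -1.29 and was called in both fits (adjusted p = 0.0188 and 0.0246), as was Pnliprp1, a pancreatic lipase relative, from 2.48 and 2.28 to -0.08, -0.65 and -0.58. Pfas, of purine synthesis, read 0.03 and -0.61 against -2.56, -3.07 and -4.75 (adjusted p = 0.00904 and 0.0316). Its 2 probes gave differences of -2.52 and -0.18 without sample 3, and the values given are those of the first. The 3 arrays of the wild-type pool read -3.75, -0.71 and -0.17 for it. Wif1, a secreted inhibitor of Wnt signalling, read -0.91 and -1.37 against -3.54, -4.26 and -2.72 and was called in both fits (adjusted p = 0.00437 and 0.000944), as was Ipcef1. Wif1 and Ipcef1 were above background on 1 R-Cyp1b1-null array each.

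Mc4r, the melanocortin 4 receptor, read -2.53 and -2.85 against -4.22, -6.33 and -5.91 and was at least 2.2-fold lower, above background on no R-Cyp1b1-null array (adjusted p = 0.00363). Without sample 3 it was at least 2.4-fold lower (adjusted p = 0.00949). Spin4 and Nkapl were at least 2.1- and 1.97-fold lower with all arrays (adjusted p = 0.0295 and 0.0397) and were not called without sample 3. Some genes were called lower once sample 3 was left out: Stfa1 and Csta1, of the closely related stefin A family, Ghsr, the ghrelin receptor, and Krt33b and Madcam1. Stfa1 read -0.36 and -1.51 against -3.64, -3.73 and -0.55, and Csta1 0.37 and -0.80 against -2.83, -3.06 and -0.49, with sample 3 inside the null range for either. The 2 probes of Csta1 disagreed, with differences of -2.73 and 3.78 without sample 3, and the values given are those of the first.

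Among called genes above background on every array, the wild-type pool mostly lay closer to R-Cyp1b1-null than to Cyp1b1-null. With all arrays this held for 607 of the 728 genes called higher and for 86 of the 134 called lower. Without sample 3 it held for 347 of the 367 called higher and for 86 of the 101 called lower. The share over all genes was not computed. The pool shared slides with R-Cyp1b1-null, so this nearness cannot tell line from slide. Cyp7a1 was an exception, as given above.

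The last comparison asked whether the difference between the lines depended on vitamin A in the diet, with 3 R-Cyp1b1-null and 2 Cyp1b1-null arrays of pups whose dams ate the same kind of diet without vitamin A. Those Cyp1b1-null arrays also lay on slide 4, and those R-Cyp1b1-null arrays on slides 1, 2 and 3. The test of the difference called 1 of 20534 genes (0.00487%), and 169 had an unadjusted p under 0.05. That gene was Ifi202b: on the deficient diet it read -0.82 and -1.29 in Cyp1b1-null and -0.59, -0.45 and -1.19 in R-Cyp1b1-null, so the lines differed by 0.31 ± 0.52 there and by 6.73 ± 0.52 on the sufficient diet (difference of differences 6.43 ± 0.74, adjusted p = 0.0038). It was not called without null sample 1 or after quantile normalization. The low value was thus measured on both sufficient null arrays and on neither deficient one. Of the next genes by p-value, Trmt61b read -7.40 and -7.62 against -3.42, -3.89 and -0.81 on the sufficient diet and -3.19 and -2.86 against -4.75, -4.49 and -3.36 on the deficient one, mostly near background (adjusted p = 0.773). Igf2 differed by -1.76 ± 0.53 on the deficient diet, where the null arrays read -1.48 and 0.99, and the difference between diets was not called (adjusted p = 0.773). Pak6, a p21-activated kinase, differed by 2.11 ± 0.44 on the deficient diet and -0.16 ± 0.44 on the sufficient one (adjusted p = 0.773).

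Among genes above background on every array and called without sample 3, 352 of 367 higher and 97 of 101 lower ones had the same sign on the deficient diet, where 54 and 13 of them were also called. Of all 20534 genes, 1706 were called higher and 27 lower on that diet, with a median of 0.26. The slides were split between the lines in the same way on both diets, so shared signs cannot tell line from slide. Scd1 differed by 3.34 ± 1.49, Ctse by 4.44 ± 0.74 and Cyp26a1 by 1.81 ± 0.65 there, and of these Ctse alone was called there (adjusted p = 0.246, 0.00414 and 0.117). The median of the cholesterol genes changed sign between diets. It was 1.83 on the sufficient diet without sample 3 and -0.47 on the deficient diet, with 6 of 20 higher. Sqle differed by -0.74 ± 1.13 and Cyp51 by -0.72 ± 0.74 on the deficient diet, and Cyp51 read 1.24 and 1.26 there in Cyp1b1-null against -2.15 and -1.88 on the sufficient diet. For fatty acid synthesis the medians were 1.60 and 0.94, with 19 of 22 higher on the deficient diet. None of these genes was called in the test of the difference between diets.

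**Figure D5:**
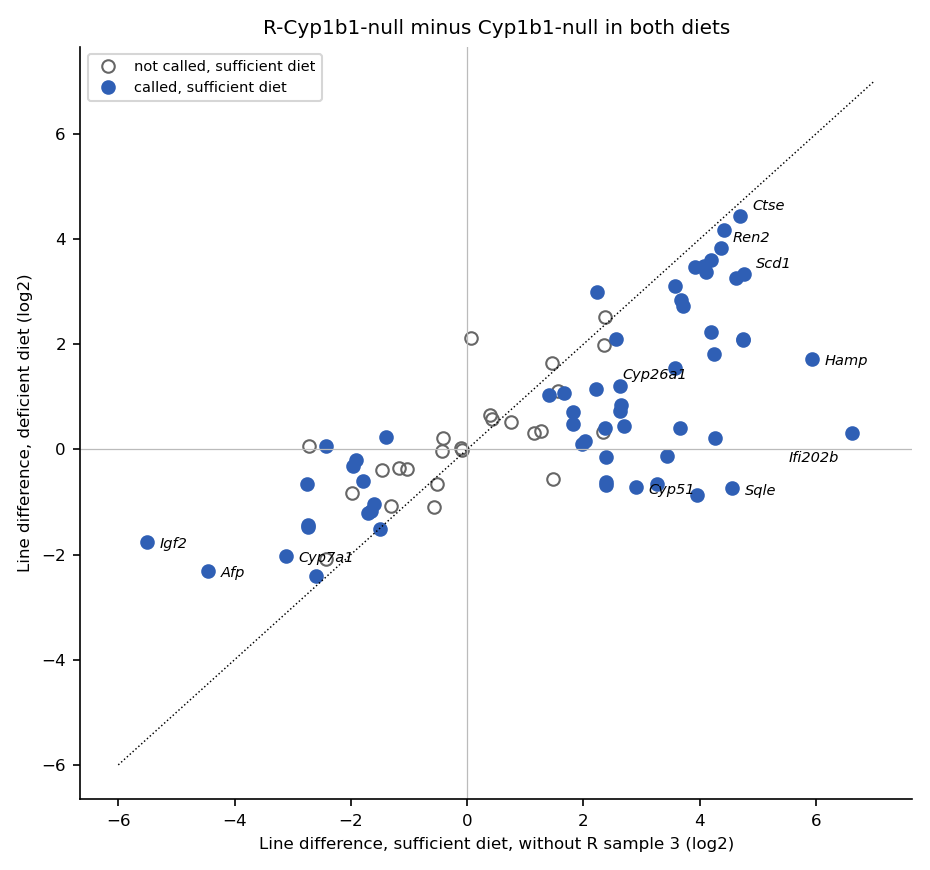
Difference between the lines (R-Cyp1b1-null minus Cyp1b1-null, log2) on the sufficient diet without sample 3 (x) and on the deficient diet (y), for 84 genes named here: Ifi202b and those above background on all 5 arrays. Filled points were called on the sufficient diet and the dotted line marks equal differences. Genes were chosen for their differences on the sufficient diet, so a smaller value on the other diet is built into the choice. Sqle and Cyp51 lay below 0 on the deficient diet, and Ifi202b near it.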

How the data were processed

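Liver RNA was hybridised to 1-colour Agilent mouse arrays, whose probes were designed on mm9 per the file headers. The deposited intensity values were the scanner's processed signals, background-subtracted by Agilent Feature Extraction 10.7.3.1 per the file headers and not scaled between arrays. The authors' deposited table held the same intensity values to within a relative difference of 0.00497, and it served as an alternative.

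Here, 2048 outlier spots and the control spots were dropped, spots of a probe were averaged, and the 75th percentile of an array was subtracted from its log2 signals. Measured probes (30921 of 41174) passed the scanner's background test throughout at least 1 group. The brightest measured probe stood for each of 20534 genes. Of the 41174 probes, 27816 were named by accession, 5503 by symbol and 380 by synonym through the RefSeq table, and 7475 by the file's own name. limma 3.58.1 in R 4.3.3 was fitted to all groups of the series (residual degrees of freedom 12), with the 3 wild-type arrays of 1 pool averaged, and p-values were adjusted by Benjamini-Hochberg over all genes. The fitting was tested on simulated data. Arrays count no molecules, and the number of arrays sets the precision.

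The genes named were the 8 largest called rises and falls among genes above background on every array, the 4 largest bounds in each direction, both with and without R-Cyp1b1-null sample 3, up to 3 members of each list of smallest p without sample 3, the 4 smallest p of the difference between diets, every Cyp1b1 probe, and Scd1, Fasn, Elovl6, Srebf1, Pnpla3, Sqle, Igf2, Afp, Hamp, Cyp7a1, Cyp2b10 and Igf1, for which the comparison was known from earlier results. Predicted genes, olfactory and vomeronasal receptors and names outside the RefSeq table were left out of the first of these choices. All other genes named were chosen after their values were seen. The members and the 35 lists were chosen with earlier results of these data known. Some list members are not reported here. In all, 18 alternatives were planned and 3 were added after seeing the data: normexp without sample 3, the arrays of pups aged 21 days without sample 3, and array weights with quantile normalization. Promoters came from the RefSeq table for GRCm38.p6, and probe positions from the files.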

Additional observations from a re-analysis of the deposited data

Results flagged for a closer look

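The difference between R-Cyp1b1-null and Cyp1b1-null in Ifi202b differed between diets. It was larger on the sufficient than on the deficient diet by 6.43 ± 0.74 on the log2 scale (SE, limma adjusted p = 0.0038). The gene was near the bottom of the range on both sufficient Cyp1b1-null arrays (-7.57 and -7.26) and well above it on both deficient ones (-0.82 and -1.29). Whether genotype, animals or hybridisation differed between those arrays was not tested.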

How the results depend on the processing

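The count of 3428 called genes went to 760 with quantile normalization and 696 when sample 3 was also left out. It was 4 with normexp background correction and quantile normalization, 18 when sample 3 was also left out, 9356 of 27337 without the filter on dim probes, 0 in a fit of the groups compared alone (3046 at an unadjusted p under 0.05 in limma), 7539 with array weights and 7261 with array weights and quantile normalization. Leaving out 1 array gave 1806 to 4734. The other settings stayed within 1.5 times of the main count: 3488 without both arrays of low correlation, 4070 with the mean of the probes of a gene, 3418 with the authors' table, 2557 and 2518 with the arrays of pups aged 21 days alone (the second without sample 3), 2957 with slide as a random block (correlation 0.186) and 3511 with the wild-type arrays as 3 samples. The median of all genes moved from 0.05 to -0.41 with quantile normalization, -0.18 with normexp, 0.76 without the filter and 0.29 when probes of a gene were averaged. The cause was not tested.

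Shared sample numbers do not pair the samples, and deviations of same-numbered samples correlated by 0.173 over 2 pairs. The fit with the replicate number as a block gave 3235 calls, 3120 of them shared with the fit without it.

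The difference between diets had 1 call. It had 0 with quantile normalization, with normexp, in fits of pups aged 21 days alone (each of these with or without sample 3) and in the fit of the groups compared, where 65 to 203 genes had an unadjusted p under 0.05 in limma. It had 2 with the replicate block, 2 with array weights and 4 with array weights and quantile normalization. Leaving out 1 array gave 0 to 1, the 0 being without null sample 1.

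Of 110 named genes, 60 were called with all arrays. Of these calls, 40 were lost with quantile normalization, 56 with normexp, 60 in the fit of the groups compared, 26 and 27 without null samples 1 and 2, and 10 without R-Cyp1b1-null sample 3, where 30 other genes were gained in the same direction. Ciart turned to -0.19 with normexp and -0.075 when sample 3 was also left out, and Hyou1 to 1.26 with array weights and 1.21 with array weights and quantile normalization. Tkt, near 0 with all arrays, was 1.41 without both arrays of low correlation, 1.41 with quantile normalization without sample 3, 1.38 with array weights and 1.37 with array weights and quantile normalization, and leaving out 1 array gave -0.86 to 1.41. Genes near background on the null arrays are limited by signal over background, since the lowest signal well above it was -5.44 and -5.67 there.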

Other observations

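The probes of the renin genes Ren1 and Ren2, which encode the enzyme that cleaves angiotensinogen, read higher in R-Cyp1b1-null on both diets. The genes are named here after their values were seen. Inbred mouse strains are known to differ in the number of renin genes they carry. Ren1 read -3.23 and -4.04 in Cyp1b1-null, 0.48, -0.61 and -1.39 in R-Cyp1b1-null and -0.07 in the wild-type pool (difference 3.13 ± 0.63, limma adjusted p = 0.00207, and 3.57 ± 0.61 without sample 3, 0.000649). Ren2 read -3.83 and -5.07, 0.56, -0.75 and -1.34 and -0.04 (difference 3.94 ± 0.63, limma adjusted p = 0.000449, and 4.36 ± 0.62 without sample 3, 0.000185). No R-Cyp1b1-null array overlapped the null arrays for either gene. On the deficient diet the differences were 3.11 ± 0.63 and 3.82 ± 0.63 (limma adjusted p = 0.0069 and 0.00389). The 60-base probes of the 2 genes shared no stretch longer than 5 bases. The genes are near-identical elsewhere, so each probe may read both, and separate rises of the 2 genes are not shown.

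A second Cyp1b1 probe, dimmer on the null arrays, read -4.54 and -4.69 in Cyp1b1-null, -2.42, -2.23 and 0.58 in R-Cyp1b1-null and -1.05, -2.25 and -3.72 on the wild-type arrays. Unlike the brighter probe, it separated the lines, but line and slide cannot be told apart. Its null values lay close to the lowest signal well above background on those arrays (-5.44 and -5.67). Its highest value was on sample 3, and the wild-type arrays shared slides with R-Cyp1b1-null.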
